A study of Mus musculus with 10 samples.

Results

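The luminal mammary transcription factors are a group of 8 genes, Gata3, Esr1, Foxa1, Elf3, Ehf, Grhl2, Pgr and Tfap2c, and they were followed here by every probe of the array that carries 1 of these symbols. This gave 17 of 45281 probes. Of the 17, 10 were detected on at least 1 of the 10 arrays, meaning that the detection p-value deposited with the intensity was 0.01 or less. The 10 probes belong to 6 of the 8 genes, against 9486 genes with a detected probe on the whole array. The arrays held RNA from 4T1, a mouse mammary carcinoma line, here tagged with firefly luciferase and grown as primary tumours in young adult female BALB/c mice of the strain the line comes from. Sublines were recovered from brains (B, n = 4), lungs (L, n = 3) and primary tumours (P, n = 3), and all of them carried the luciferase tag and were kept in culture for 3 to 4 passages before RNA was taken. Each array held 1 subline. The sublines are described as independently isolated, but no source used here says which of them came from the same mouse. The cells were inoculated orthotopically per the labels and subcutaneously per the study's methods.

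In the mammary gland, luminal cells line the ducts and the milk-producing alveoli, and a small set of transcription factors sets and holds their identity. GATA3 maintains luminal differentiation, ESR1 is the oestrogen receptor alpha, FOXA1 opens chromatin for it, PGR is the progesterone receptor and a target of ESR1, and TFAP2C, also called AP-2 gamma, takes part in the control of ESR1 and of luminal genes. ELF3 and EHF are epithelium-specific ETS factors. GRHL2, of the Grainyhead family, maintains epithelial junction genes such as that of E-cadherin.

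Values are on the log2 scale after background correction and quantile normalization. Detected probes numbered 14796 to 15563 on B arrays, 14764 to 14938 on L arrays and 14218 to 14635 on P arrays. The keratin genes Krt8 and Krt18, which mark luminal epithelium, were detected on all arrays with log2 values of 13.52 to 14.51 and 12.62 to 13.67, and Cdh1, which encodes E-cadherin, at 8.32 to 11.35, whereas the luminal marker Epcam and the basal markers Krt5 and Trp63 were detected on none. Of the lists for other cell types, 0 of 7 lymphocyte, 1 of 8 endothelial, 2 of 9 macrophage, 2 of 9 astrocyte, 2 of 12 lung epithelial and 4 of 8 fibroblast genes on the array were detected on at least 1 array. The defining genes Gfap, Ptprc, Sftpc, Pecam1, Col1a1 and Col3a1 were not detected on any array. Summed over the 8 fibroblast genes, the intensity was 1030 to 3080 on B arrays, 784 to 1180 on L arrays and 660 to 850 on P arrays, and Pdgfra was higher in B than in P sublines by 2.40 ± 0.51 (SE, log2, limma adjusted p = 0.0168). The summed intensity of the 9 macrophage genes was 672 to 1030 on B arrays, 1010 to 1250 on L arrays and 823 to 1020 on P arrays, and Lyz2 was lower in B than in L sublines (adjusted p = 0.00269, limma). Their part in the differences below was not tested. In such bulk RNA, fewer cells of a type and less RNA per cell cannot be told apart.

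The promoters of Gata3, Esr1 and Elf3 are shown because Gata3 and Esr1 differed in one direction between the groups and Elf3 in the other. Each runs from 250 bases before to 50 bases after a start site, 5′ to 3′, from RefSeq on GRCm38.p6, and promoter entries were matched for 5 of the 8 genes (Gata3, Esr1, Foxa1, Elf3 and Pgr). Capitals mark 3 searched motifs, looked for on both strands: the AP-2 motif GCCNNNGGC, which is its own reverse complement, the GATA motif GATAA and the oestrogen receptor half-site GGTCA. The first promoter lies at chr2:9878551-9878850 on the minus strand, inside the span of the Gata3 gene, the second at chr10:4611739-4612038 on the plus strand at the 5′ end of Esr1, and the third at chr1:135258423-135258722 on the minus strand at the 5′ end of Elf3.
Gata3: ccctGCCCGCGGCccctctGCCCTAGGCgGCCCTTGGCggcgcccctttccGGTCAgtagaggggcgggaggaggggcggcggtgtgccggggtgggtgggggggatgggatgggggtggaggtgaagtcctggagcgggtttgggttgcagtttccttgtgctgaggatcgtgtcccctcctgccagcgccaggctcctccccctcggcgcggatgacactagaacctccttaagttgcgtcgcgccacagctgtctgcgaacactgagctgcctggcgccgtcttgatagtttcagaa
Esr1: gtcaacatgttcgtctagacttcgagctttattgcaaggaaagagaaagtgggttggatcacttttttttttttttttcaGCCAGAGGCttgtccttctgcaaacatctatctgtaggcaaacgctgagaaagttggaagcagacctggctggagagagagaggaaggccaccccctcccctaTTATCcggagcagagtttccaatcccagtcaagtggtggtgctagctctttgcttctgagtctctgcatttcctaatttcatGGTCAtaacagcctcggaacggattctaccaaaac
Elf3: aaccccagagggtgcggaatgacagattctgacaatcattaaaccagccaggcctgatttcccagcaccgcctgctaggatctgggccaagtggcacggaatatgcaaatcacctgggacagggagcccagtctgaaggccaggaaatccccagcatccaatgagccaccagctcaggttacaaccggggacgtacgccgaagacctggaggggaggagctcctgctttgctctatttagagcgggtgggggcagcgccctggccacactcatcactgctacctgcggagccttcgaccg
The Gata3 promoter held 3 matches to the AP-2 motif, which begin 246, 231 and 221 bases before the start site, and 1 half-site. The Esr1 promoter held 1 match to each of the 3 motifs. No match was found in the Elf3 promoter or in a second Esr1 promoter, and the Foxa1 promoter held 1 half-site. Over all 32851 RefSeq promoters of the same length, 16.6% held the AP-2 motif, 25.4% the GATA motif and 40.5% the half-site. A match describes the letters and is not a binding site.

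The 17 probes differed in how far they rose above background. Gata3 (chr2:9857078-9887953) has 1 probe, Esr1 (chr10:4611989-5005633) has 4, Foxa1 (chr12:57540628-57548029) has 1, Tfap2c (chr2:172545678-172558622) and Elf3 (chr1:135253574-135258472) have 3 each, Grhl2 (chr15:37232821-37363569) and Pgr (chr9:8898900-8968611) have 2 each and Ehf (chr2:103263431-103303275) has 1. The Pgr probes were detected on no array, with log2 values of 4.45 to 4.76 over both probes and all arrays and a lowest detection p of 0.234. The Ehf probe was likewise detected on no array (4.43 to 4.70, lowest detection p 0.318). For Esr1, 1 of the 2 probes designed to the RefSeq transcript was detected on all 10 arrays and the other on none (4.42 to 4.59), as were 2 further probes to cDNA clones, so the Esr1 values below rest on 1 probe. For Grhl2, too, 1 of 2 probes to the same transcript carried all of the signal, and the other was detected on no array (4.52 to 4.90). The detected Esr1, Foxa1 and Elf3 probes were dim, with intensities of 118 to 280 for Esr1 and 110 to 216 for Foxa1, against array medians over all probes of 68.81 to 85.95.

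**Figure D1:**
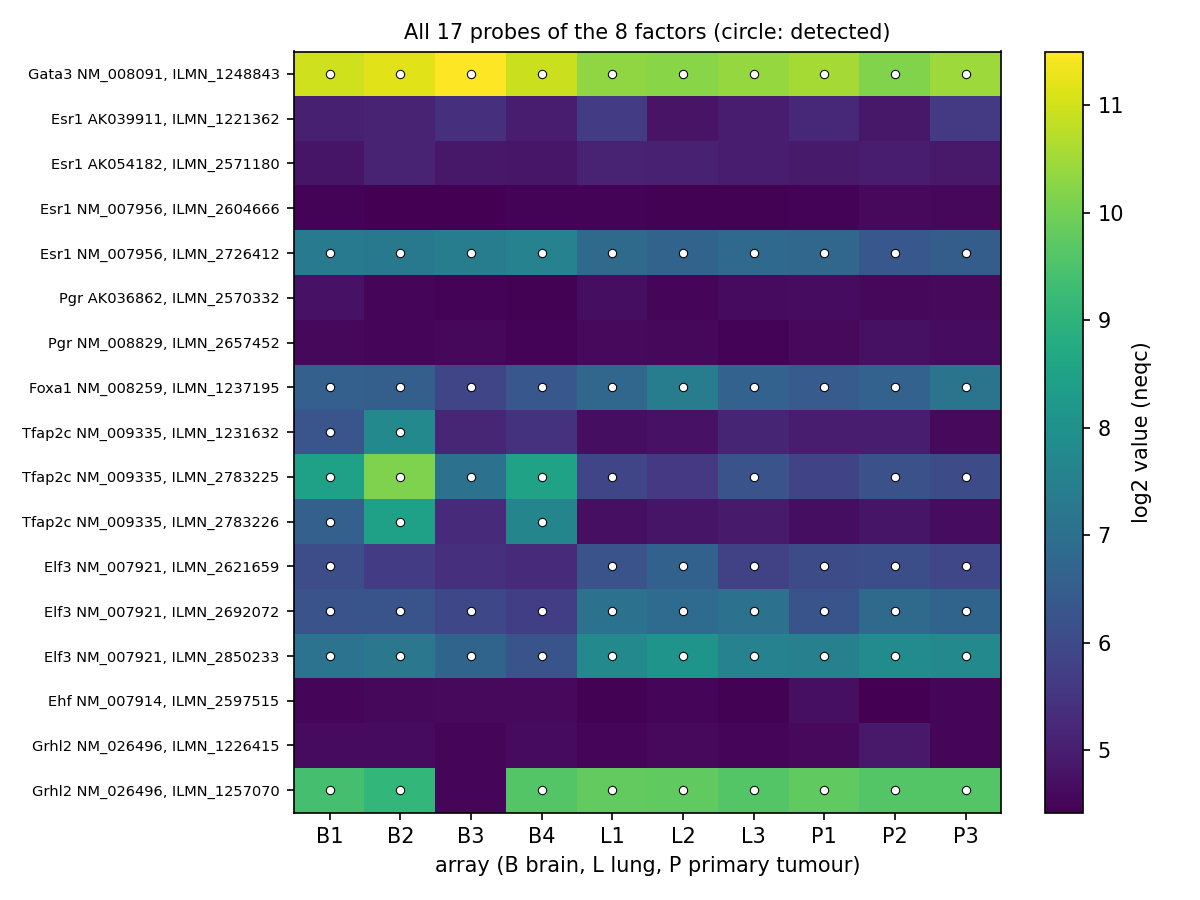
Log2 value (colour) of the 17 probes of the 8 factors (rows) on the 10 arrays (columns, B then L then P), with a circle where the probe was detected (detection p of 0.01 or less). Grhl2 was not detected on B3, and the Pgr and Ehf probes were detected on no array.

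The first question was whether sublines from the brain differed from those of the primary tumour in these factors. Of the 6 genes with a detected probe, 3 were higher in B than in P sublines (Gata3, Esr1 and Tfap2c) and 0 were lower, at an adjusted p under 0.05 by limma over 9316 genes. Over all genes tested, 7.56% were higher in B and 6.93% lower. Set against L sublines, the same 3 genes were higher in B and 1, Elf3, was lower, while 3.85% of 9386 genes were higher in B and 4.25% lower. Both comparisons use the same B arrays. The remaining genes Foxa1 and Grhl2 passed neither test.

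Gata3 had log2 values of 10.99, 11.18, 11.50 and 10.93 on B arrays, 10.32, 10.23 and 10.38 on L arrays and 10.54, 10.16 and 10.47 on P arrays. Every B array was above every L and P array, and the L and P arrays overlapped. Here and below such a lack of overlap is a description, and its share over all genes is not given. The mean was 11.15 ± 0.26 in B (SD, n = 4), 10.31 ± 0.07 in L (n = 3) and 10.39 ± 0.20 in P (n = 3). The difference of B from P was 0.76 ± 0.19 (SE), a 1.7-fold higher level (limma adjusted p = 0.0307), and that of B from L was 0.84 ± 0.18, or 1.79-fold (limma adjusted p = 0.0252). Before normalization the intensities were 1870 to 2660 on B arrays, 1030 to 1670 on L arrays and 967 to 1780 on P arrays, and B was again above both. With median scaling between arrays in place of quantile normalization the differences were 0.64 and 0.72 and their adjusted p-values 0.0961 and 0.0694 (limma), past the threshold in neither comparison.

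Esr1 was read at 7.31, 7.27, 7.42 and 7.56 on B arrays, at 6.87, 6.68 and 6.85 on L arrays and at 6.76, 6.34 and 6.51 on P arrays. The B arrays lay above all others, and L1, L3 and P1 were close together just below them. The mean of the B arrays was 7.39 ± 0.13 (SD, n = 4), against 6.80 ± 0.10 in L and 6.54 ± 0.21 in P (n = 3 each). Esr1 was thus 1.81-fold higher in B than in P (log2 difference 0.85 ± 0.17 SE, limma adjusted p = 0.0137) and 1.51-fold higher in B than in L (0.59 ± 0.15, limma adjusted p = 0.0478, and 0.0954 with the replicate block). The second call passed in 7 of 18 alternatives and failed, for example, with median scaling (0.54, limma adjusted p = 0.156). The spread among B arrays was small, and 9.65% of all genes had a smaller SD in B.

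Tfap2c showed the widest difference of the 6. Its most variable probe was read at 8.46, 10.12, 7.10 and 8.49 on B arrays, at 5.89, 5.60 and 6.23 on L arrays and at 6.18 or less on P arrays (5.87, 6.18 and 6.05). All B arrays were above all L and P arrays, with B2 highest and B3 lowest among them, and on L2 and P1 the probe was not detected. The mean was 8.54 ± 1.24 in B (SD, n = 4), against 5.91 ± 0.32 in L and 6.03 ± 0.16 in P (n = 3 each). The difference was 2.51 ± 0.55 (SE) between B and P, or 5.7-fold (limma adjusted p = 0.0196), and 2.64 ± 0.56 between B and L, or 6.21-fold (limma adjusted p = 0.0249, and 0.0589 with the replicate block). Of all genes, 98.5% had a smaller SD in B than Tfap2c. In the authors' processed values the differences were 1.35 and 1.39 and did not pass (limma adjusted p = 0.0542 and 0.0688), and with no filter on dim probes the adjusted p-values were 0.0645 and 0.0778 (limma).

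The other 2 Tfap2c probes read the same transcript with less signal. The second was detected on 3 of 4 B arrays, at 6.58, 8.46 and 7.65 on B1, B2 and B4 and at 5.30 on B3, against 4.70 to 4.93 on L arrays and 4.66 to 4.83 on P arrays, on none of which it was detected. Set against the dimmest detected probe of each array, its level in B exceeded that in L by at least 2.39-fold and that in P by at least 2.21-fold, with limma adjusted p-values over all detected probes of 0.0666 and 0.042. As it was detected on B arrays alone, this probe entered those tests only through the group where it is higher. The third was detected on B1 and B2 alone, at 6.28 and 7.76, with 5.19 and 5.45 on B3 and B4, 4.69 to 5.14 on L arrays and 4.61 to 5.0 on P arrays, and passed neither test (limma adjusted p = 0.169 against L and 0.129 against P). All 3 probes were highest on B2 and lowest, within B, on B3.

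Elf3 went the other way. Its most variable probe had values of 6.23, 6.25, 5.96 and 5.74 on B arrays, 7.05, 6.89 and 7.09 on L arrays and 6.26, 6.86 and 6.70 on P arrays. The B arrays were below all L arrays and, for B1 and B2 only just, below all P arrays. Elf3 averaged 6.04 ± 0.24 in B (SD, n = 4) and 7.01 ± 0.11 in L (n = 3), a log2 difference of -0.97 ± 0.18 (SE) that makes it 1.96-fold lower in B (limma adjusted p = 0.0148). The mean in P was 6.61 ± 0.31 (n = 3), and the difference of B from P, -0.56 ± 0.21, did not pass (limma adjusted p = 0.0967). A brighter Elf3 probe had 7.11, 7.23, 6.71 and 6.26 on B arrays, 7.75, 8.08 and 7.56 on L arrays and 7.5, 7.83 and 7.74 on P arrays, with no overlap between B and the others. For it the difference was -0.86 between B and P (limma adjusted p = 0.0467) and -0.97 between B and L (limma adjusted p = 0.0505), adjusted over all detected probes, so the 2 probes had equal differences from L and fell on opposite sides of the threshold in each comparison. The third probe, at 5.30 to 6.10 on B arrays, 5.78 to 6.62 on L arrays and 5.93 to 6.13 on P arrays, passed in neither (limma adjusted p = 0.184 against L and 0.192 against P).

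**Figure D2:**
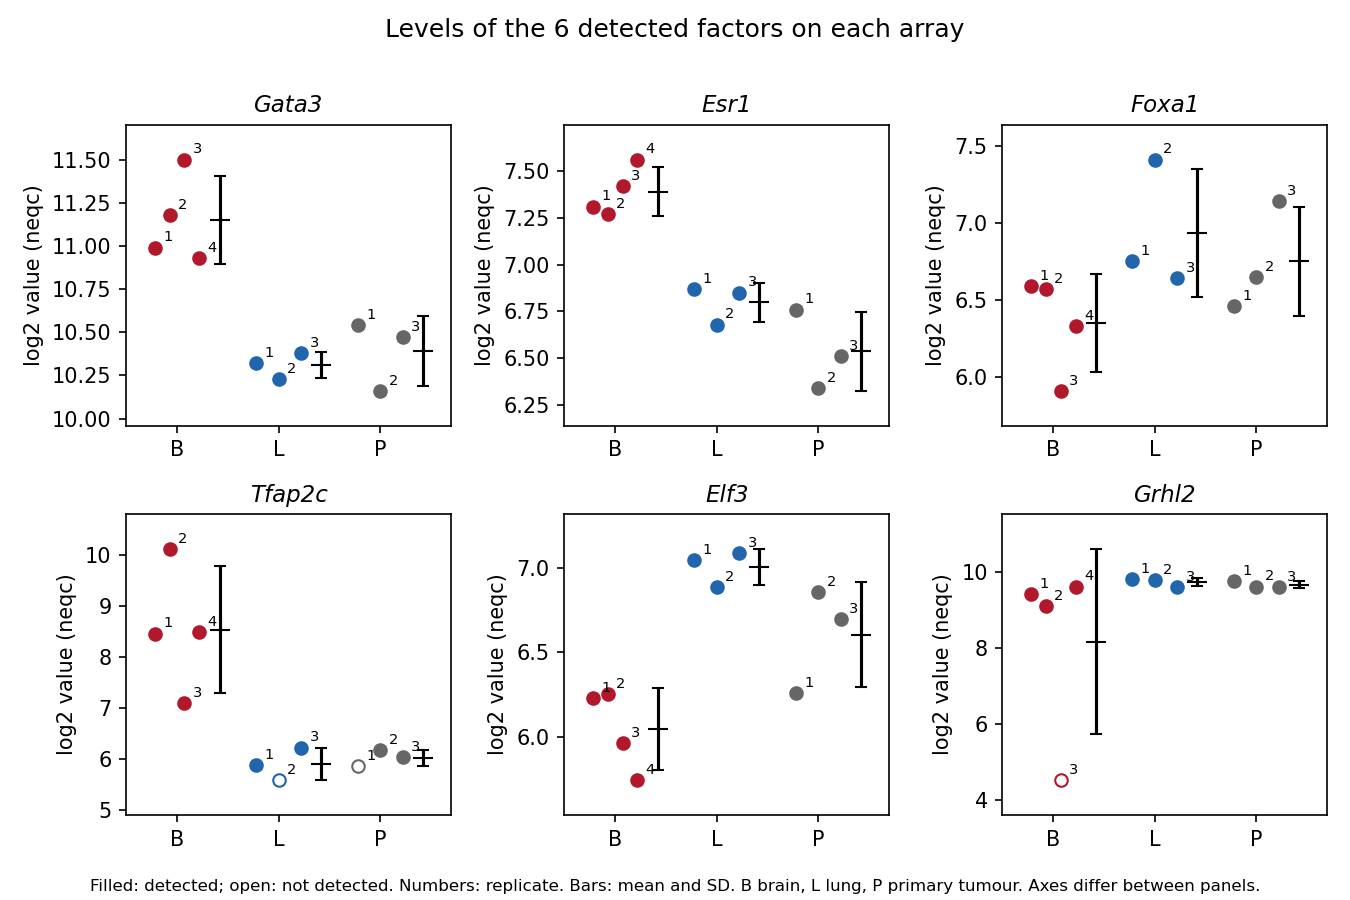
Log2 values of the 6 detected factors, 1 panel each, on the B, L and P arrays (x axis), with points numbered by replicate, open where not detected, and the mean and SD beside each group; the y axes differ between panels. All B points lie above the L and P points for Gata3, Esr1 and Tfap2c, below the L points for Elf3, and B3 alone is low for Grhl2.

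Foxa1 overlapped between B and P and between L and P, but not between B and L. It had 6.59, 6.57, 5.91 and 6.33 on B arrays, 6.75, 7.41 and 6.64 on L arrays and 6.46, 6.65 and 7.14 on P arrays. The B arrays were below all L arrays but not below P1, and L2 was the highest of the 10. The differences of B were -0.40 from P, with a 95% interval of -0.92 to 0.12, and -0.58 from L, with an interval of -1.13 to -0.04, and neither passed (limma adjusted p = 0.262 and 0.167).

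Grhl2 was near constant on 9 arrays and not detected on 1. Its values were 9.42, 9.10, 4.53 and 9.61 on B arrays, 9.80, 9.77 and 9.60 on L arrays and 9.76, 9.61 and 9.60 on P arrays. The low array was B3, with an intensity of 61.9 and a detection p of 0.672, and the other 9 had intensities of 495 to 1190. Against the dimmest detected probe on B3 (5.74), the level on B3 was at least 10.3-fold below that of the lowest other array and at least 15.1-fold below the mean of P. As 3 B arrays were near the others, the group difference was not called: B differed by -1.49 from P (95% interval -3.88 to 0.89) and by -1.56 from L (-3.92 to 0.81), with limma adjusted p-values of 0.368 and 0.385. Without B3 these differences were -0.28 and -0.34. Of 6860 genes detected on the other 9 arrays, Grhl2 ranked 7 by the log2 gap between B3, set to 5.74 where undetected, and the lowest other array (at least 3.36), and Krt7, a keratin of simple epithelia that was not detected on B3, ranked 1 (at least 5.97).

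A list of 30 epithelial genes linked to GRHL2 was then read across the arrays. Of the 20 with a detected probe, 14 (70%) had their lowest value of the 10 arrays on B3, against 18.4% of all genes, but for some of them, such as Cldn6, Esrp2 and Ovol2, that rank lies among values near or below background. Among the 15 detected on all 9 other arrays, 11 (73.3%) were lowest on B3, against 20.7% of 6860 such genes. Esrp1, an epithelial splicing factor, was at 4.69 on B3 and 8.37 to 11.78 on the other arrays. The tight-junction genes Cldn3 and Cldn4 were at 4.92 and 6.64 on B3, with at least 8.48 and 10.28 elsewhere. With Esrp1, they had the widest gaps of the list. Cdh1 was at 8.32 on B3, against 9.66 to 11.35 on the other arrays. Of the 15, those not lowest on B3 were Cldn7 (6.08 on B3, 5.89 on the lowest other array), Lsr (8.61 and 8.47), Prss8 (7.63 and 7.48) and Spint1 (7.76 and 7.73). Spint2 was lowest there by little (7.27 and 7.29). Krt8 and Krt18 were highest on B3, at 14.51 and 13.67, as were the mesenchymal genes Vim (14.22), Zeb2 (9.40) and Pdgfra (11.45). The mesenchymal factor gene Zeb1 was not, at 5.79 on B3 against 6.06 on L2 and 5.87 on L3. Pdgfra also heads the fibroblast list, whose Col1a1, Col1a2, Col3a1 and Lum were not detected on any array. Of the other factors, B3 had the highest Gata3 value of all arrays, and the lowest Foxa1 value.

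**Figure D3:**
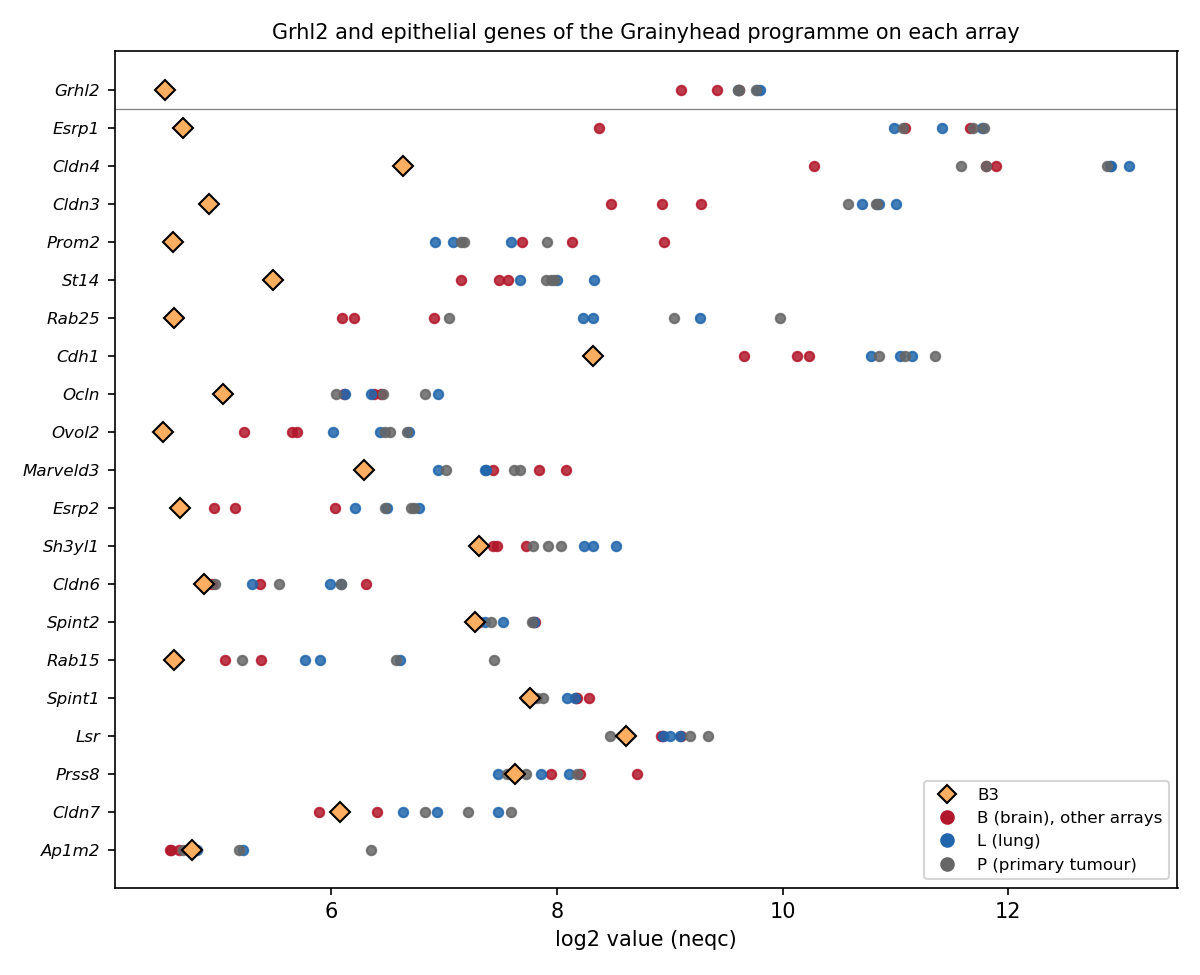
Log2 value (x axis) on each of the 10 arrays of Grhl2 (top row) and of 20 epithelial genes of the Grainyhead programme (rows, by the gap between B3 and the lowest other array), with B3 as a diamond and the other arrays as points coloured by group. B3 is the lowest array for 14 of the 20 genes, some of them with values near background.

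The 20 genes were then compared between the groups. The median difference between B and P was -0.89, with 0 genes higher and 5 lower, against a median of -0.01 over all genes, and between B and L it was -0.91, with 0 of 19 higher and 5 lower. The shares lower, 25% and 26.3%, stood against 6.93% and 4.25% of all genes. Those lower than in P were Rab25 (-2.73, limma adjusted p = 0.0302), Cdh1 (-1.51, 0.0403), Esrp2 (-1.44, 0.0155), Ovol2 (-1.28, 0.0185) and Cldn7 (-1.10, 0.0133), which encode a trafficking GTPase, E-cadherin, a splicing factor, a zinc-finger factor and a claudin. Esrp2 and Ovol2 were near background, at no more than 6.78 and 6.69 on any array and undetected on B3, so the sizes of their differences are uncertain. Rab25, Esrp2 and Cldn7 were lower than in L as well. Both counts fell with any P or L array left out, as did the calls over all genes (335 to 570 without a P array against 1350, and 130 to 232 without an L array against 760). Against P, 4, 4, 6 and 5 genes were lower without B1, B2, B3 and B4, and 1 in each fit without 1 of the P arrays. Against L, 2, 2, 8 and 5 were lower without B1, B2, B3 and B4, 1, 0 and 0 without L1, L2 and L3, and 4 with the replicate block.

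Lung sublines were set against those of the primary tumour to see whether the factors differ between a metastatic site other than the brain and the tumour. None of the 6 genes passed, where 0.385% of 8835 genes were higher in L and 0.034% lower, 37 genes in all, with 1315 at an unadjusted p under 0.05 by limma and 45 called by the methods' t-test with a random variance model after adjustment. The differences were -0.08 for Gata3 (95% interval -0.43 to 0.27), 0.26 for Esr1 (-0.10 to 0.62), 0.18 for Foxa1 (-0.36 to 0.72), -0.12 for Tfap2c (-0.55 to 0.30), 0.40 for Elf3 (-0.01 to 0.81) and 0.06 for Grhl2 (-0.26 to 0.39).

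**Figure D4:**
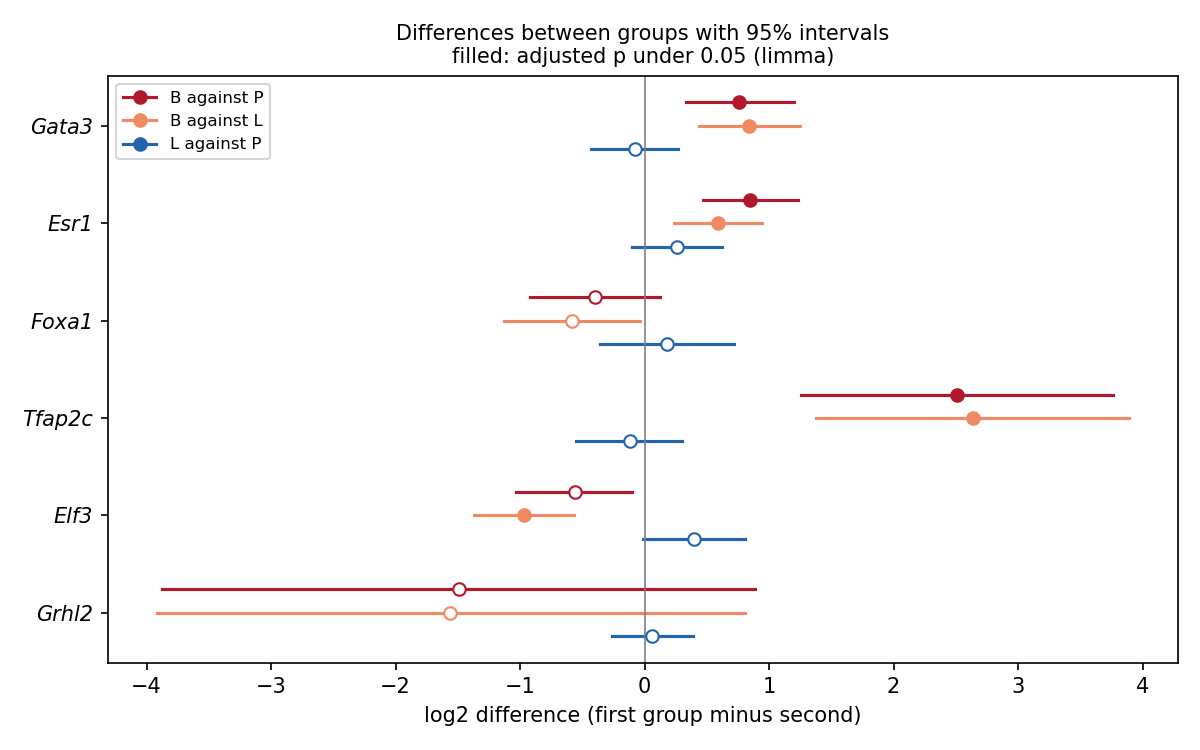
Log2 difference (x axis, first group minus second) and 95% interval from limma for the 6 detected factors (rows) in B against P, B against L and L against P, filled where the adjusted p was under 0.05. Gata3, Esr1 and Tfap2c are higher in B in both comparisons, Elf3 is lower in B than in L, and the L against P intervals all span 0.

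These calls depended on the number of arrays. With L1, L2 or L3 left out, 0 of the 6 genes passed between B and L, and between B and P 1 (Esr1) passed without P1 and 0 without P2 or P3, where the count over all genes also fell, to 130 to 232 for L and 335 to 570 for P against 760 and 1350. Without B1, 2 of the 4 genes passed between B and L (Gata3 and Elf3), and between B and P Gata3 did not pass (limma adjusted p = 0.0535). Without B2, B3 or B4, Esr1 alone was lost between B and L. The directions held in each of these fits, as the ranges without 1 array show for B against P: 0.65 to 0.84 for Gata3, 0.76 to 0.96 for Esr1 and 1.98 to 2.99 for Tfap2c. With the replicate number as a block, Esr1 and Tfap2c no longer passed between B and L (0.53, limma adjusted p = 0.0954, and 2.65, limma adjusted p = 0.0589), while Gata3 and Elf3 did. No L array shares the number of B4, so the blocked fit takes nothing from B4. Its differences equal those without B4, where Esr1 was also lost (limma adjusted p = 0.0765) and Tfap2c passed (0.0395).

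Other factors of the luminal lineage were counted from a list of 25 genes, 24 of them on the array and 15 detected, with limma adjusted p-values in parentheses. Between B and P, 4 of 15 were higher in B and 0 lower (median 0.41), and between B and L 3 were higher and 0 lower (median 0.17). The shares higher, 26.7% and 20%, stood against 7.56% and 3.85% of all genes. These shares are a description only. The list was chosen with earlier results of these data known, and it holds Id2, which the study had selected from these same arrays. Id2, an inhibitor of basic helix-loop-helix factors, was read at 9.29 to 10.10 on B arrays, 8.25 to 8.35 on L arrays and 7.43 to 8.13 on P arrays (1.99 higher in B than in P, limma adjusted p = 0.00275). Stat5a, which drives alveolar differentiation, was higher in B by 1.24 than in P (limma adjusted p = 0.0116) and by 0.74 than in L (0.0446). Xbp1, a factor of the unfolded protein response, was higher by 1.12 and 0.79 (0.0042 and 0.0144). Cebpb was higher in B than in P by 1.02 (limma adjusted p = 0.0301) and was not called between B and L. The alveolar factor Elf5 and the ductal factor Spdef were not detected on any array. With 1 P array left out the count was 2 to 4. Between B and L it was 1 with any L array left out, 1 with median scaling and 2 with the replicate block.

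Genes that respond to oestrogen were read beside Esr1, from a list of 28 that also holds Gata3, Tfap2c and Foxa1. Of 17 tested, 5 were higher in B than in P and 1 lower, and 4 were higher in B than in L and 1 lower. The shares higher, 29.4% and 23.5%, stood against 7.56% and 3.85% of all genes. Both shares count Gata3 and Tfap2c again, and Xbp1 from the list of other luminal factors, so they are not separate from the calls above. The share lower, 5.88% in each, was near the 6.93% and 4.25% of all genes. Beside Gata3 and Tfap2c the higher ones against P were Xbp1, the lysosomal protease gene Ctsd (0.83, limma adjusted p = 0.0162) and Igf1r (0.81, 0.0133), and against L they were Xbp1 and the cyclin gene Ccnd1 (0.84, 0.0189). Myc, named because it alone was lower, differed by -0.79 in each comparison (limma adjusted p = 0.0162 and 0.0252). The established targets Greb1 and Pgr were detected on no array. With 1 P array left out, 1, 1 and 2 genes of the list were called higher, and with 1 L array left out, 0. In each of these fits 0 were called lower, so the Myc call was lost as well. Between B and L, 2 were higher with median scaling and 3 with the replicate block.

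Structural genes of luminal cells were counted as well. Of 30 keratins and markers, 14 were tested between B and P, and 1 was higher (the water channel gene Aqp5, 1.56, limma adjusted p = 0.0122) and 2 lower (Cdh1 and Cldn7), with a median of -0.32. Between B and L, 1 of 15 was higher (Aqp5, 1.65, 0.0121) and 4 were lower, among them Krt19 (-1.89, 0.0411) and Muc1, a mucin that was not detected on B arrays (at least 1.59-fold lower in B, 0.0158). Muc1 thus entered that test, and the count, only through L arrays, where it is higher. Against P, the 7.14% higher was near the 7.56% of all genes, and 14.3% were lower against 6.93%. Against L, 6.67% were higher and 26.7% lower, against 3.85% and 4.25% of all genes. Against P, 2, 1, 3 and 2 were lower without B1, B2, B3 and B4, and 0, 1 and 0 without P1, P2 and P3. Aqp5 was not called against P without P1, nor against L without L1 or L2. Against L, 1, 2, 6 and 3 were lower without B1, B2, B3 and B4, 0, 1 and 1 without L1, L2 and L3, and 2 with the replicate block. Between L and P the milk-protein gene Csn3 was called, 2.15 higher in L (limma adjusted p = 0.012), and the count of 1 became 0 without L1 or L3, with no filter on dim probes or with 1 model for all arrays, 2 with no background correction or an offset of 50, and 3 without P2 or with median scaling.

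Basal genes were counted the same way. Among 11 tested markers, 3 were higher in B than in P (Mylk, Itgb4 and Vim) and 4 lower, with the keratin gene Krt14 at 4.75 to 7.55 on B arrays, 10.93 to 11.64 on L arrays and 10.10 to 11.63 on P arrays. Among 14 tested basal or mesenchymal factors 1 was higher, the forkhead gene Foxq1 (by at least 4.35-fold over P, limma adjusted p = 0.0106), and 0 lower. That share of the factors, 7.14%, was near the 7.56% of all genes. Foxq1 was not detected on P arrays, so it entered the test against P only through B arrays, where it is higher. Of the markers, 27.3% were higher and 36.4% lower, against 7.56% and 6.93% of all genes. Against P, 1 marker was higher and 2 lower without B1, and 1, 1 and 0 were higher and 3, 3 and 2 lower without P1, P2 and P3. Krt14 and Krt17 were also lower in B than in L, where 2 markers were higher and 3 lower (18.2% and 27.3%, against 3.85% and 4.25% of all genes), and 0 were higher without L1 or L2. Without B2 or B3, 3 of the factors were higher in B than in P. B3 had the highest value of 6 of the 14 factors (42.9%, against 16.5% of all genes). This was not particular to the basal list. B3 was also highest for 7 of the 15 other luminal factors (46.7%) and 6 of the 17 oestrogen-response genes (35.3%).

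Relatives of the 8 factors were measured by the same arrays, and limma adjusted p-values are given in parentheses. The GATA cofactor gene Zfpm2 was lower in B, by -1.45 from P (limma adjusted p = 0.0168) and by -1.66 from L (0.008), though not called against P without P2 or P3, and the GATA-type repressor gene Trps1 differed by 0.54 and 0.69, which did not pass (0.0541 and 0.0614). Gata2 differed by 0.16 and -0.17, and Gata1, Gata4, Gata5 and Gata6 were not detected. Among AP-2 genes Tfap2a alone was detected beside Tfap2c, with differences of 0.21 from P and 0.67 from L that did not pass (0.642 and 0.121). Of 12 ETS genes tested between B and P, 1 was higher in B and 1 lower (median 0.06), and of 13 between B and L, 1 was higher and 0 lower. The 8.33% higher and 8.33% lower against P were near the 7.56% and 6.93% of all genes, and against L 7.69% were higher, against 3.85%. Etv1 was read at 8.79 to 8.91 on B arrays, 7.59 to 7.70 on L arrays and 7.42 to 7.61 on P arrays, higher in B by 1.33 and 1.21 (0.00243 and 0.00268). The lower gene was the ETS repressor gene Erf, not detected on B arrays and lower in B than in P by at least 1.02-fold (0.0298). Erf entered that test only through P arrays, where it is higher. The call was lost without B4 or any P array. It was also lost with the authors' processed values, no background correction, an offset of 50, median scaling or the replicate block. Requiring detection on every array of 1 group removed it too. Of 12 forkhead genes, 3 (25%, against 7.56% of all genes) were higher in B than in P and 0 lower (median 0.21): Foxq1, Foxc2 (1.14, 0.0406) and Foxf1 (0.047). Foxq1 and Foxf1 were not detected on P arrays, so they entered that test only through B arrays, where they are higher. Foxq1 alone was higher in B than in L (2.81, 0.0145). With 1 P array left out, 1 forkhead gene was higher, as without B1 or with no filter on dim probes. The count was 2 with the authors' processed values, no background correction, an offset of 50, median scaling or the replicate block. Without B2, B3 or B4 it was 2 as well. Between B and L the count was 0 without L1 or L2, or with no filter on dim probes. Grhl1 and Grhl3 were not detected, and the more distant Tfcp2, Tfcp2l1 and Ubp1 differed by 0.41, -0.46 and -0.28 between B and P and passed in no comparison. The second oestrogen receptor gene Esr2 was not detected, and the orphan receptor gene Esrra differed by -0.80 from P and -0.71 from L (0.0844 and 0.145).

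The genes most like each factor over the 10 arrays were taken from 7980 genes as a description, with arrays that fall into 3 groups and share their processing. For Gata3 they were Flrt3 (Pearson r = 0.977), Smg6 (0.973) and Ubtd1 (0.968). For Tfap2c they were Bin1 (0.963), Nceh1 (0.956) and Abhd14b (0.955). For Esr1, Rbm4b, Fggy and Tgfbr1 were nearest (0.958, 0.952 and 0.951), but with the group means removed these fell to 0.558, 0.591 and 0.601, so much of the likeness was the difference between groups. Elf3 was most like Hook2 (0.964), Nfkbid (0.946) and Vars2 (0.944), and Foxa1 like Ier3 (0.918), Fam3c (0.907) and Shtn1 (0.9). Grhl2 was most like Krt7 (0.994), Ripk4 (0.993) and Kcnk1 (0.99), and without B3 these were 0.835, 0.909 and 0.835.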

How the data were processed

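RNA from 10 sublines was read on Illumina MouseWG-6 v2.0 bead arrays. The authors extracted the intensity of each probe with GenomeStudio, not normalized and with background included, and deposited with it a detection p-value for each probe and array. In the table of processed values the authors used lumi to drop undetected probes, stabilize the variance and normalize by robust splines (no version is given), and deposited values close to a log2 scale, which were used as an alternative. No source used here gives the slide of an array.

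The deposited intensities were corrected and quantile-normalized here with neqc in limma 3.58.1 (R 4.3.3, offset 16). Of 17550 detected probes, 14973 had 1 gene symbol from the platform annotation, 7 had several and 2570 none. Where a gene had several detected probes (3721 genes), the most variable by interquartile range stood for it, as in the study's methods. A gene entered a comparison if any of the arrays compared detected its probe. A gene detected in 1 group alone entered only through that group, and its p-value is not independent of the filter. Each comparison used limma on the arrays of its 2 groups, two-sided, with Benjamini-Hochberg adjustment over all genes and a threshold of 0.05, and each detected probe was also fitted by itself. A group in which a probe was detected on no array gave a lower bound of the fold, from each array's dimmest detected probe. The number of arrays limits the precision, and the p-values measure the spread between sublines.

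Same-numbered arrays deviated together for B and L (correlation of deviations from group means 0.142 to 0.211 in 3 of 3 pairs, against -0.108 to 0.0638 for different numbers), so the value with the replicate number as a block is given beside that comparison where it changed a call or a count. No source says what the number marks. B4 shares its number with no L or P array, so the blocked fits of B take nothing from B4, and their differences equal those without it. For B and P and for L and P the correlations were -0.116 to 0.0403 and -0.105 to 0.0888. The 8 members and all gene lists were chosen with earlier results of these data known. Named genes are all members, up to 4 called genes of each mammary list or factor family with the largest difference, the relatives in the factor families (named where called or closest to a member, the others counted) and the 3 genes most like each member. Scripts were tested on simulated data. Alternatives were the processed table, no background correction, an offset of 50, median scaling, other probe filters and probe choices, 1 model for all arrays, the random variance model, the block and leaving out each array.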

Additional observations from a re-analysis of the deposited data

Results flagged for a closer look

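Grhl2 on array B3 stood apart from the other B arrays: its log2 value was 4.53, against 9.10 to 9.61 on B1, B2 and B4, and the gap was 0.899 of the range of the group, above Dixon's limit for 4 samples at the 95% level (0.868 with B3 set to its dimmest detected probe). The 10 detected probes of the factors were examined in B, and chance marks about 1 in 20 such groups. The L and P groups have 3 arrays each and were not examined.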

How the results depend on the processing

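Between B and P, 3 of the factors were called, and this became 1 with the random variance model at an unadjusted p under 0.001 and 1 with the replicate block, for which the numbers do not pair B and P by the correlations above. It was 0 to 3 with 1 array left out and 2 to 4 in the other fits. Between B and L, 4 were called, and this became 2 with the authors' processed values, 2 with median scaling and 2 with the replicate block (pairing by number, with B4 in effect left out). It was 0 to 3 with 1 array left out and 3 to 4 otherwise. Between L and P the count was 0 in every alternative, by limma and by the random variance model. The directions between B and P and between B and L did not reverse in any alternative. Between L and P, where neither gene was called, Foxa1 became -0.06 and Tfap2c 0.03 without L2 (ranges with 1 array left out -0.06 to 0.37 and -0.29 to 0.03). Tfap2c differed by 1.35 (limma adjusted p = 0.0542) between B and P and 1.39 (0.0688) between B and L in the authors' processed values, and its adjusted p ranged from 0.00365 to 0.0818 and from 0.00348 to 0.115 over all alternatives. Esr1 between B and L passed in 7 of 18 alternatives (adjusted p 0.0285 to 0.19), and Elf3 between B and P passed in 1 of 18, with its brightest probe (-0.86, limma adjusted p = 0.0471). The causes were not tested. Signal over background limits what can be said of Pgr, Ehf and Foxa1, and also of Elf3, at 5.74 to 6.25 on B arrays, and of Tfap2c in L and P, at 5.60 to 6.23 and undetected on L2 and P1. It also limits Esr1, which was detected on all arrays but lay at 6.34 to 6.87 in L and P. Its difference between B and P was 0.38 in the authors' processed values, against 0.85.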
